A study of Mus musculus with 8 samples.

Results

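The genes described here make cholesterol and fatty acids, regulate that synthesis, and carry sterols between cells. They were chosen by name as 40 gene symbols, of which 39 had a row among the 24047 rows of the deposited counts and 38 had enough reads to be tested. Hmgcs1, the cytosolic synthase at the entry to the mevalonate pathway, had no matching row and is not analysed here. Ebp, a sterol isomerase, had a row but too few reads for the test. RNA came from tdTomato-positive astrocytes sorted from the somatosensory cortex of mice at postnatal days 23 to 25. All 8 samples carried Glast-CreERT2, a tamoxifen-inducible Cre under a promoter of astrocytes and neural stem cells, and the Ai14 tdTomato reporter, and all received 10 to 15 μL of tamoxifen at 20 mg/ml on each of postnatal days 12 to 14. The 4 WT samples had no floxed Ptch1, and the 4 Ptch1cKO samples were homozygous for floxed Ptch1. Ptch1 encodes the receptor that restrains Smoothened, so the comparison asks what changes in astrocytes when this restraint on Hedgehog signalling is removed.

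Cholesterol in the brain is made locally, because lipoproteins of the blood do not cross the blood-brain barrier. In the postnatal cortex astrocytes are a main source, and they export cholesterol on particles built around apolipoprotein E that neurons take up through receptors such as Lrp1. Supply is set by the SREBP transcription factors, which are held in the endoplasmic reticulum by Scap and the Insig proteins when sterol is plentiful and are cut free when it is scarce. Export and turnover are set by the liver X receptors (LXR), which are activated by oxysterols and switch on Abca1, Abcg1 and Srebf1.

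The libraries held between 4061274 and 7206462 counts. Ptch1 itself had a log2 fold change of -0.67 (standard error, SE, 0.22) over the whole gene, in which reads from the deleted part are not counted apart, with an adjusted p of 0.349 by edgeR's quasi-likelihood test with Benjamini-Hochberg adjustment. Sparc, the gene with the smallest p, had one of 1.49 (SE 0.15; edgeR adjusted p = 0.000476). Xist, which female cells express, was counted 1148 times in WT replicate 2, 612 times in WT replicate 3 and at most 4 times elsewhere, so the fold changes of the set were also fitted without those 2 libraries. Markers of other cells were present among the sorted cells. The 10 neuronal markers summed to between 11951 and 15302 CPM (counts scaled to library size and composition) and the 10 markers of mature oligodendrocytes, which make cholesterol for myelin, to between 13823 and 26792 CPM. The 10 astrocyte markers summed to between 17040 and 35114 CPM. A lower level in such bulk samples can come from fewer cells of a type or from less RNA per cell, and these cannot be told apart. Whether each library came from its own animal is not in the labels, and the p-values reflect the spread among these samples alone.

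Promoter sequences are shown first because the results below refer to them. RefSeq windows of 300 bases (250 before a transcript start and 50 after it, GRCm38.p6) were found for 32 of the 40 genes, 43 windows in all. The genes without a window, which could not be searched, were Fdps, Fdft1, Sqle, Clu, Abcg1, Stard4, Scd1 and Scd2. The CCAAT box, bound by NF-Y, which acts beside SREBP at sterol genes, was searched as CCAAT on both strands. It was found in the windows of 14 of 15 genes of the sterol pathway from Acat2 to Dhcr7, all but Acat2, and in 24 of the 32 genes, beside 41.1% of all 27025 genes with a window. Mvk, the kinase that phosphorylates mevalonate, held 5 copies. None was found for Apoe, Abca1, Lrp1, Nr1h2 or Nr1h3. The sterol regulatory element, searched on both strands as TCACNCCAC, matched only Hmgcs1 among the members with a window and 1.24% of all 32851 windows. Only this spelling was searched, so a window without a match can still hold such an element. The E-box CACGTG, a palindrome that SREBP-1 can also bind, matched 7 of the 32 genes, among them Insig1 and Abca1, and 8.09% of all genes. An LXR element of the DR4 kind (a repeat of a receptor half-site spaced by 4 bases) was searched on both strands as the half-sites GGTTA and CGGTCA with any 4 bases between them. These half-sites were written from the known elements of Abca1 and Srebf1, so that their presence in those genes is not a result. It occurred in 4 of the 32851 windows, those of Abca1, Srebf1, Fasn and Prrg4. Only these exact half-site letters were searched, which by itself makes matches rare. A window without a match can still hold an LXR element spelled otherwise. No match of one motif overlapped a match of another in a member's window.

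The 250 bases before the start, 5′ to 3′ on the strand of the gene, are printed for the genes with the DR4 pattern, with the match in capitals. It lies on the opposite strand to the gene and so reads TGACCG, 4 bases and TAACC, starting 67 bases before the start of Abca1, 182 before that of Srebf1 and 225 before that of Fasn. The 15 matched bases of Fasn are the same as those of Abca1. Srebf1 has 3 annotated starts, and the window shown belongs to the one farthest downstream.
Abca1, chr4:53159896-53160145, minus strand: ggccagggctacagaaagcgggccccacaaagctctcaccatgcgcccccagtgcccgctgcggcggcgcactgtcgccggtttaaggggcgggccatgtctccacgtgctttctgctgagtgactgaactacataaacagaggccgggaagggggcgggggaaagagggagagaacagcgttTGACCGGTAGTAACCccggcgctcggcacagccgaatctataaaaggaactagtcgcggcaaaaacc
Srebf1, chr11:60210472-60210721, minus strand: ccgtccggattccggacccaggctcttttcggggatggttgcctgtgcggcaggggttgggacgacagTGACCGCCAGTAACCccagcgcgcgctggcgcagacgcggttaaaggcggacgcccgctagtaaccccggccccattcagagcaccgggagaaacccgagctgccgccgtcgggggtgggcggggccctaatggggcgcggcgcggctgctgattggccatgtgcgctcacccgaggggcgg
Fasn, chr11:120824548-120824797, minus strand: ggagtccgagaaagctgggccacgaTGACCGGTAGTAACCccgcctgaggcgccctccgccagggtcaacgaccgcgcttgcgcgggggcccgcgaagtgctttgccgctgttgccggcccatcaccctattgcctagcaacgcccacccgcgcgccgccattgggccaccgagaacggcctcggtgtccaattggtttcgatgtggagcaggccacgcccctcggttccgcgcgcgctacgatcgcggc
A start that carries an E-box is shown for Insig1, with the box in capitals, and one with CCAAT boxes for Mvk, with the 5 copies (CCAAT, or ATTGG on the other strand) in capitals.
Insig1, chr5:28071162-28071411, plus strand: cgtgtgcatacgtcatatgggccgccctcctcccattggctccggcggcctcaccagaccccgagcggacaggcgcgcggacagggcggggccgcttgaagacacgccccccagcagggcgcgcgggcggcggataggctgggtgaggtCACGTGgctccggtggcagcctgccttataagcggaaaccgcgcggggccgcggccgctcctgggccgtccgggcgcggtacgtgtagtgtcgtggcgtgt
Mvk, chr5:114444019-114444268, plus strand: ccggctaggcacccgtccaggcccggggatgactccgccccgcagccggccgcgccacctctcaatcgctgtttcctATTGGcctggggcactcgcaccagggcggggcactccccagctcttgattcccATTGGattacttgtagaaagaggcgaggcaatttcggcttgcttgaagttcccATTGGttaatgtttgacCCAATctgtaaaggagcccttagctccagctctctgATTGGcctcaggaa
These matches describe the letters of the windows and do not show that a factor binds there.

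Levels between genes were compared in the authors' TPM (transcript abundance scaled to a fixed total), which allow for gene length. Apoe was the most abundant of the 39 in WT at 1479 ± 423 TPM (SD, n = 4). It was followed by Scd2, a stearoyl-CoA desaturase, at 711 ± 166, by the chaperone-like apolipoprotein Clu at 519 ± 101, by Scd1 at 395 ± 78.5, and by the lipoprotein receptor Lrp1 at 124 ± 33.9 TPM (SD, n = 4). Over the WT libraries the range of Clu overlapped those of Scd2 and Scd1, although Scd2 was above Clu and Clu above Scd1 within each of the 4. Cyp51, the lanosterol demethylase, led the sterol synthesis enzymes at 81.7 ± 13.3 TPM (SD, n = 4). The median was 10.8 TPM over the 6 measured genes of the mevalonate pathway and 18.6 TPM over the 11 from Fdft1 to Dhcr7. Genes of fatty acid synthesis had a median of 46.9 TPM, with Acaca the lowest at 35.6 ± 7.06 (SD, n = 4). Between the SREBP genes, Srebf2, the one that mainly drives cholesterol synthesis, stood at 63.4 ± 5.53 TPM and Srebf1, which mainly drives fatty acid synthesis, at 4.60 ± 1.43 TPM in WT (SD, n = 4). Of the LXR genes, Nr1h2 stood at 19.7 ± 5.85 TPM and Nr1h3 at 1.96 ± 1.47 TPM (SD, n = 4). How evenly the exome probes captured different genes was not measured here.

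**Figure D1:**
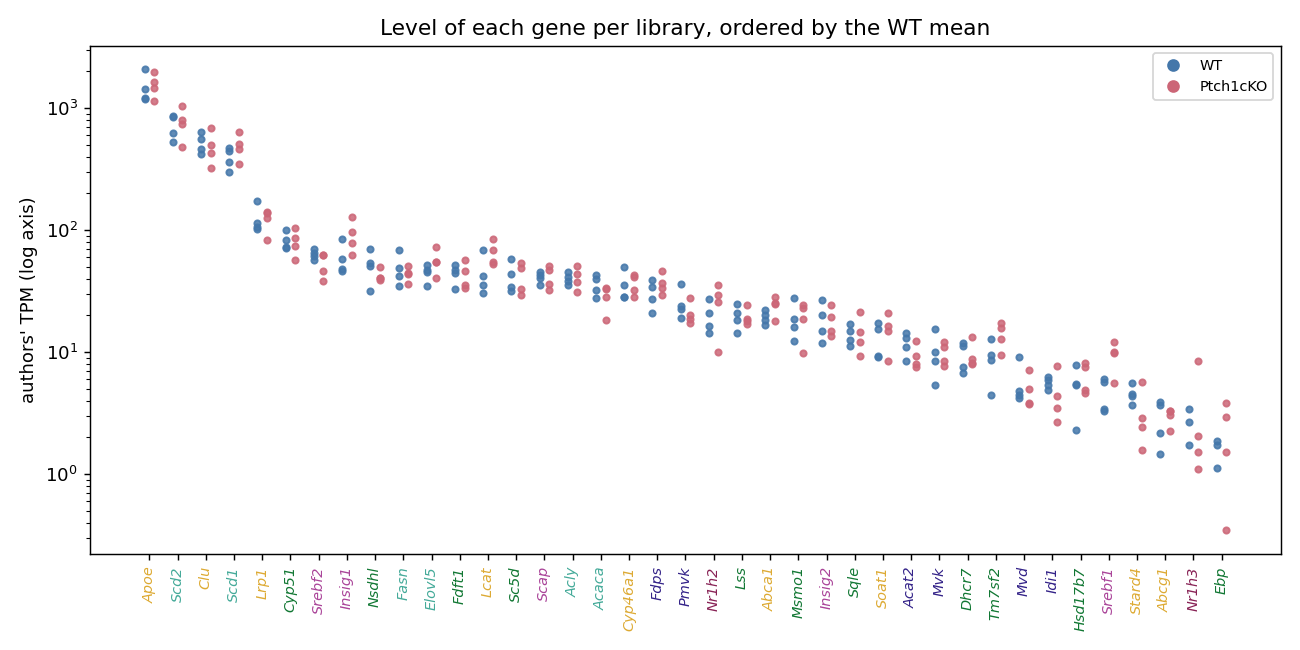
Level of each of the 39 genes in the authors' TPM on a log axis, 1 point per library (blue WT, red Ptch1cKO), ordered by the WT mean and with names coloured by role as in the plot of fold changes. Apoe, Scd2, Clu and Scd1 stand above all other genes, and the points of both groups lie in the same range for most genes; the value of 0 that Nr1h3 and Ebp each have in 1 WT library cannot be drawn on this axis.

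Between genotypes, no gene of the set passed the test, and the enzymes of sterol synthesis had median fold changes near 0. In the fit of all 10954 tested genes, 0 of the 38 had a Benjamini-Hochberg adjusted p under 0.05 by edgeR's quasi-likelihood test, beside 0.100% of all genes, and 0 passed by DESeq2, beside 0.632% of the genes it tested. An unadjusted p under 0.05 was found for 7 of the 38 (18.4%), beside 9.34% of all genes. All 7 were higher in Ptch1cKO, beside 4.80% of all genes that were higher at that level and 4.54% that were lower. They were Srebf1, Insig1, Abca1, Lcat, Scd1, Elovl5 and Tm7sf2. The count moved both ways with single libraries. It was 3 of 38 without WT replicate 2, beside 8.83% of all genes. It was 4 without WT replicate 4 (8.82%) and 4 without Ptch1cKO replicate 4 (6.83%). It was 8 without WT replicate 3 (9.54%) and 8 without Ptch1cKO replicate 3 (8.04%), and 5 or 6 without each of the others. By limma on TPM it was 4, beside 10.4% of all genes. In the main fit the smallest adjusted p of the 7 was 0.256. The fold changes were positive for 29 genes and negative for 9, with a median of 0.13 on the log2 scale, beside 49.6% positive and a median of -0.00 over all genes. The members were chosen with earlier results of these data known, and members of a pathway vary together from library to library. For both reasons these shares do not measure chance. On log2(TPM + 1) with limma the split was 21 positive to 17 negative and the median 0.01, where the median of all genes was -0.10. Leaving out single libraries gave medians of 0.05 to 0.25, with the lowest without Ptch1cKO replicate 2 (24 positive, 14 negative). That split and the median also moved without Ptch1cKO replicate 4 (24 to 14, median 0.05) and WT replicate 2 (24 to 14, median 0.06). The median also moved without WT replicate 3 (0.25) or Ptch1cKO replicate 3 (0.21). Without WT replicates 2 and 3 together, 39 members were tested, 28 positive and 11 negative, with a median of 0.23. Of these, 6 had an unadjusted edgeR p under 0.05, beside 7.91% of all genes.

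**Figure D2:**
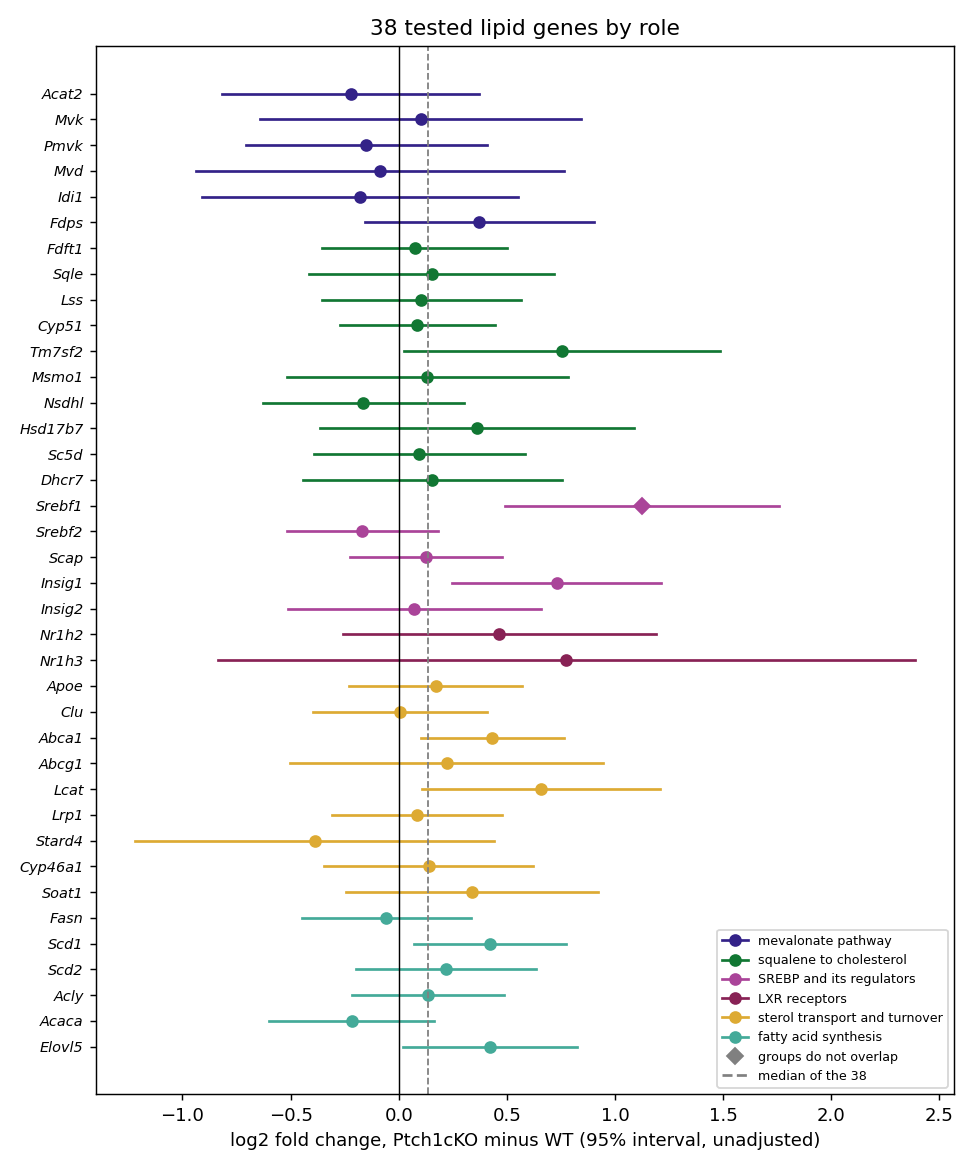
Log2 fold change (Ptch1cKO minus WT) of the 38 tested genes on the horizontal axis with the 95% interval, not adjusted for the number of genes, coloured by role; the dashed line is their median of 0.13. Srebf1, drawn as a diamond, is the gene whose CPM did not overlap between groups, and most sterol synthesis enzymes have intervals on both sides of 0.

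Srebf1 stood farthest apart. Its levels were 9.08, 5.34, 9.36 and 4.94 CPM in WT replicates 1 to 4 and 16.6, 16.2, 10.1 and 20.0 CPM in Ptch1cKO replicates 1 to 4. All 4 Ptch1cKO libraries lay above all 4 WT libraries, a separation found in 5.02% of all genes, 2.52% in the higher direction, and in 1 of these 38. The margin was narrow, since Ptch1cKO replicate 3 held 41 reads at 10.1 CPM and WT replicate 3 held 67 reads at 9.36 CPM, and in TPM that order turned, with 5.59 and 5.98. Means were 7.18 ± 2.37 CPM in WT against 15.7 ± 4.13 CPM in Ptch1cKO (SD, n = 4), which is a log2 fold change of 1.13 (SE 0.30, 95% interval 0.49 to 1.76). The unadjusted p was 0.00171 and the adjusted p 0.256 (edgeR quasi-likelihood test, Benjamini-Hochberg). Over the 16 alternatives the fold change stayed between 0.89 and 1.28 and the adjusted p between 0.0233 and 0.627. It passed in 1 of them, edgeR without the count filter, which called 199 genes in all. DESeq2 gave an adjusted p of 0.0509, and without WT replicates 2 and 3 the log2 fold change was 1.16 with an edgeR adjusted p of 0.476. Srebf1 lies at chr11:60199089-60222581 on the minus strand of mm10. Its exons overlap opposite-strand Rai1 and the microRNA gene Mir6922. The sources used here do not state whether counting used strand, and Rai1 had a log2 fold change of -0.22 (SE 0.24). The counts cover the whole gene and do not separate its 3 starts, so they do not show which promoter the reads come from.

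Srebf2, by contrast, overlapped between the groups. Its levels were 111, 101, 117 and 91.4 CPM in WT and 110.2, 80.8, 73.5 and 109 CPM in Ptch1cKO, at a log2 fold change of -0.17 (SE 0.16, 95% interval -0.52 to 0.18; edgeR adjusted p = 0.806). Within each library the TPM of Srebf2 was 11.5 to 17.7 times that of Srebf1 in WT and 4.70 to 6.85 times in Ptch1cKO. The ratio did not overlap between groups (exact two-sided permutation test, p = 0.0286, the smallest this design allows; 0.0429 adjusted by Benjamini-Hochberg over 3 ratios of gene pairs). It was computed with the values of Srebf1 known, and its denominator is the gene that stood apart. The ratio of Nr1h2 to Nr1h3 was also computed but not tested, since Nr1h3 had 0 reads in WT replicate 4. It overlapped, at 4.83 to 11.96 in the other WT libraries and 1.20 to 31.9 in Ptch1cKO. The adjusted p of 0.0429 holds only for the 3 ratios tested and would be larger with that ratio counted.

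Insig1, which retains the SREBP and Scap complex and is itself an SREBP target, had the next smallest p. The gene lies at chr5:28071363-28078662 on the plus strand of mm10. It had 44.7, 45.7, 81.2 and 52.9 CPM in WT and 79.4, 129, 68.4 and 96.7 CPM in Ptch1cKO. The groups overlapped through WT replicate 3, which lay above Ptch1cKO replicates 1 and 3. The log2 fold change was 0.73 (SE 0.23, 95% interval 0.25 to 1.21; edgeR unadjusted p = 0.00574, adjusted p = 0.337). Without the count filter the adjusted p was 0.00866, which passed, and over all 16 alternatives it ran from 0.00866 to 0.638. The related Insig2 had 19.6 ± 7.26 CPM in WT against 20.6 ± 5.19 CPM in Ptch1cKO (SD, n = 4), which is a log2 fold change of 0.07 (SE 0.27). The ratio of Insig1 to Insig2 in TPM was 1.71 to 7.22 in WT and 4.20 to 5.84 in Ptch1cKO and overlapped (exact permutation p = 0.2, also 0.2 adjusted). Scap, the sterol sensor that escorts SREBP, had 63.9 ± 6.07 and 69.7 ± 12.5 CPM (SD, n = 4; log2 fold change 0.13, SE 0.16).

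Of the LXR receptors, Nr1h2, which encodes LXRβ, had 12.1, 14.9, 19.8 and 9.88 CPM in WT and 27.0, 7.65, 24.6 and 19.7 CPM in Ptch1cKO. Ptch1cKO replicate 2 was the lowest of all 8, and the log2 fold change was 0.47 (SE 0.34; edgeR adjusted p = 0.728). Nr1h3, which encodes LXRα, was near the limit of the test, with 15, 8, 14 and 0 reads in WT and 6, 37, 7 and 7 in Ptch1cKO. Its log2 fold change of 0.78 (SE 0.75) rested on Ptch1cKO replicate 2 and was -0.27 without it.

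Among transport genes, Abca1 (chr4:53030787-53159895, minus strand) and Lcat (chr8:105939551-105943382, minus strand) had the largest positive values. Abca1, the pump that loads cholesterol onto apolipoprotein E, had 63.9, 82.3, 75.8 and 66.5 CPM in WT and 98.6, 111, 78.5 and 101 CPM in Ptch1cKO. A single pair of libraries crossed, WT replicate 2 and Ptch1cKO replicate 3. The log2 fold change was 0.43 (SE 0.16, 95% interval 0.10 to 0.76; edgeR unadjusted p = 0.0134, adjusted p = 0.404). Lcat, which esterifies cholesterol on secreted particles, had 20.5, 16.8, 32.8 and 13.999 CPM in WT and 34.5, 27.3, 28.8 and 42.6 CPM in Ptch1cKO. Its groups overlapped through WT replicate 3 alone, at a log2 fold change of 0.66 (SE 0.26, 95% interval 0.11 to 1.21; edgeR unadjusted p = 0.0222, adjusted p = 0.445).

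The abundant carriers had intervals on both sides of 0. Apoe had 640.1, 511, 913 and 508 CPM in WT and 676, 899.7, 571 and 747 CPM in Ptch1cKO. WT replicate 3 was the highest library of all, and the log2 fold change was 0.17 (SE 0.19, 95% interval -0.23 to 0.57; edgeR adjusted p = 0.837). Clu had a log2 fold change of 0.00 (95% interval -0.40 to 0.41) and Lrp1 one of 0.09 (95% interval -0.31 to 0.48). Abcg1, a second sterol exporter, had 5.88 ± 2.36 CPM in WT against 6.85 ± 1.32 CPM in Ptch1cKO (SD, n = 4), too few reads to show a difference like that of Abca1, with a 95% interval of -0.50 to 0.95. Soat1, which esterifies cholesterol for storage, had a log2 fold change of 0.34 (SE 0.27). Cyp46a1, which makes the oxysterol by which the brain clears cholesterol and is mainly a neuronal enzyme, had one of 0.14 (SE 0.23). The sterol carrier Stard4 had the lowest fold change of the 38, -0.39 (SE 0.39), with 4.87 ± 0.804 CPM in WT against 3.65 ± 2.001 CPM in Ptch1cKO (SD, n = 4).

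**Figure D3:**
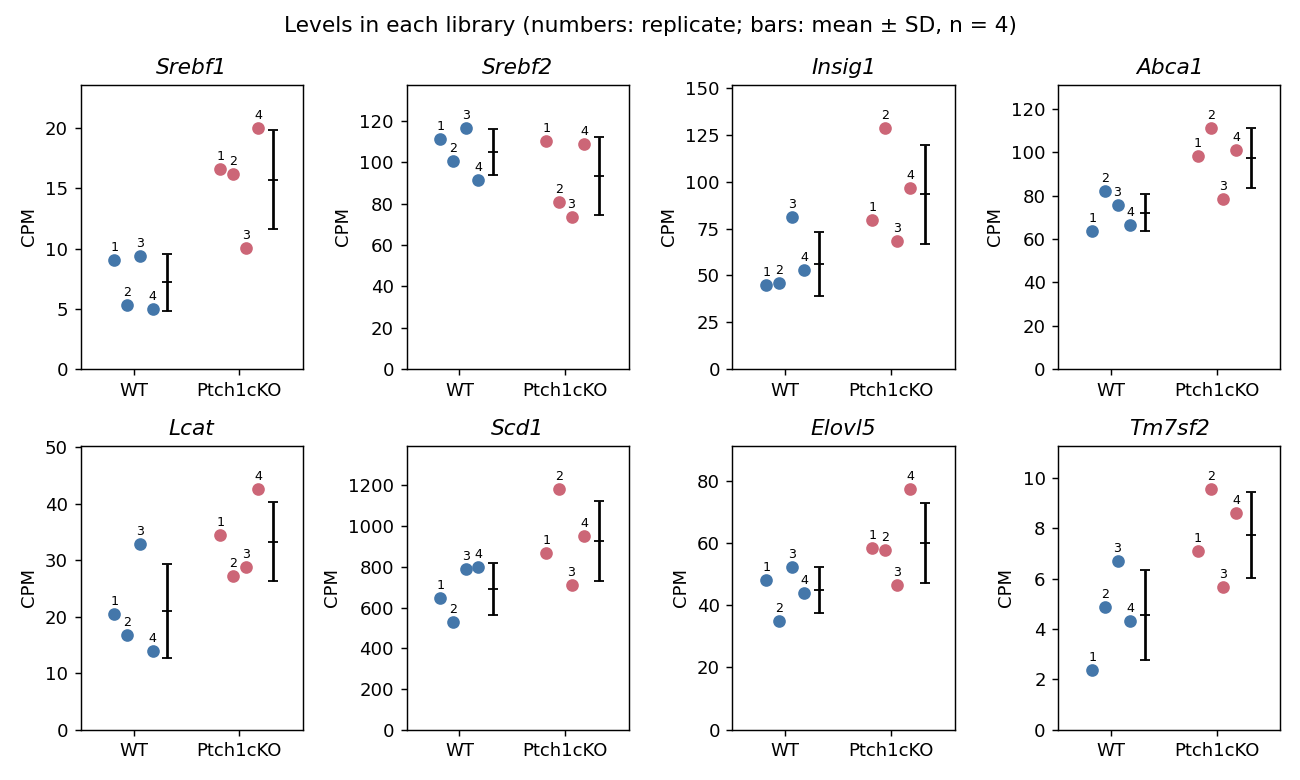
CPM of 8 genes in each library on axes that start at 0, with replicate numbers beside the points and the mean ± SD (n = 4) at the right of each group. The groups of Srebf1 are separate by a narrow margin, those of Abca1, Lcat and Insig1 overlap through 1 WT library each (replicate 2 for Abca1, replicate 3 for Lcat and Insig1), and Srebf2 shows no shift upward.

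In fatty acid synthesis the desaturase gene Scd1 and the elongase gene Elovl5 had positive fold changes with unadjusted edgeR p-values under 0.05, and Scd2, Fasn, Acly and Acaca did not. Scd1 lies at chr19:44394455-44407879 on the minus strand and Elovl5 at chr9:77917364-77984519 on the plus strand. Scd1, which puts the first double bond into stearate, had 649, 528, 788 and 800.2 CPM in WT and 867, 1183, 709 and 951 CPM in Ptch1cKO. Ptch1cKO replicate 3 lay below WT replicates 3 and 4, and the log2 fold change was 0.42 (SE 0.17, 95% interval 0.07 to 0.78; edgeR unadjusted p = 0.0214, adjusted p = 0.445). Elovl5, which lengthens polyunsaturated fatty acids, had 48.1, 34.9, 52.3 and 44.1 CPM in WT and 58.2, 57.7, 46.5 and 77.4 CPM in Ptch1cKO. Again Ptch1cKO replicate 3 lay within the WT range, and the log2 fold change was 0.42 (SE 0.19, 95% interval 0.02 to 0.82; edgeR unadjusted p = 0.0413, adjusted p = 0.513). Without WT replicates 2 and 3, Scd1 had a log2 fold change of 0.36 and Elovl5 one of 0.38, with unadjusted edgeR p-values of 0.0972 and 0.121.

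Scd2, the desaturase of brain, had 1264, 1034, 1708 and 1615 CPM in WT and 1570.5, 2165, 1102 and 1693 CPM in Ptch1cKO. Its groups overlapped widely, at a log2 fold change of 0.22 (SE 0.19; edgeR adjusted p = 0.790). Scd1 and Scd2 varied together from library to library, and their ratio varied much less than either. In TPM, Scd2 was 1.73, 1.73, 1.92 and 1.79 times Scd1 in WT replicates 1 to 4 and 1.61, 1.62, 1.38 and 1.58 times in Ptch1cKO replicates 1 to 4. The means were 1.79 ± 0.0895 and 1.55 ± 0.113 (SD, n = 4). All WT ratios lay above all Ptch1cKO ratios (exact two-sided permutation test, p = 0.0286, the smallest this design allows; 0.0429 adjusted over the 3 ratios tested). The adjustment leaves out the untested ratio of Nr1h2 to Nr1h3. A ratio within a library does not depend on its scaling, but that of Scd2 to Scd1 was examined after the values of both genes were known. The genes lie on opposite strands of chromosome 19, and 4.66% of the 50-base words of the longest Scd1 transcript also occur in transcripts of other genes, mainly Scd2, so some reads could be assigned to either.

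Fasn, the fatty acid synthase whose window holds the same DR4 letters as that of Abca1, had 184, 154, 252 and 123 CPM in WT and 172, 168, 152 and 195 CPM in Ptch1cKO. The Ptch1cKO libraries all lay inside the WT range, and the log2 fold change was -0.06 (SE 0.18, 95% interval -0.45 to 0.34; edgeR adjusted p = 0.966). Acly, which makes cytosolic acetyl-CoA from citrate, had one of 0.14 (SE 0.17). Acaca, the carboxylase that makes malonyl-CoA, had one of -0.22 (SE 0.18), and 52.6% of the 50-base words of its longest transcript also occur in other transcripts, mainly the pseudogene Gm5182, so its count is uncertain.

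None of the 16 tested sterol synthesis enzymes passed the test by edgeR (smallest adjusted p = 0.518), and 1 had an unadjusted p under 0.05, beside 9.34% of all genes. In the mevalonate pathway 2 of 6 measured genes had positive fold changes, with a median of -0.12, and all 6 lay between -0.22 (Acat2, which joins acetyl-CoA units) and 0.37 (Fdps, which makes farnesyl diphosphate). Mvk, Pmvk and Mvd, which act in sequence on mevalonate, had values of 0.10, -0.15 and -0.09, and the isomerase Idi1 had -0.18, with SEs of 0.26 to 0.40. Counts of Acat2 are uncertain, since 45.9% of its 50-base words are shared, mainly with Acat3. Those of Idi1 share 21.3%, mainly with Gm13502.

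From squalene to cholesterol 9 of 10 tested genes had positive fold changes, with a median of 0.12. Tm7sf2, a sterol reductase, had the highest fold change and was the gene with an unadjusted p under 0.05. Its levels were 2.36, 4.87, 6.71 and 4.32 CPM in WT and 7.10, 9.56, 5.66 and 8.59 CPM in Ptch1cKO. The groups crossed at WT replicate 3 and Ptch1cKO replicate 3. The gene lies at chr19:6062821-6068373 on the minus strand. Its log2 fold change was 0.75 (SE 0.34, 95% interval 0.02 to 1.48; edgeR unadjusted p = 0.0438, adjusted p = 0.518), on 14 to 55 reads a library. An exon of the same-strand gene Vps51 overlaps it, and Vps51 had a log2 fold change of -0.03 (SE 0.29).

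The enzyme of this pathway with the smallest SE was Cyp51 (0.17), with 129 ± 20.6 CPM in WT against 137 ± 28.9 CPM in Ptch1cKO (SD, n = 4). Its log2 fold change was 0.09 and the 95% interval -0.27 to 0.44. Sqle, the squalene epoxidase that limits the rate of this branch, had 15.0, 11.0, 16.8 and 11.9 CPM in WT and 12.6, 15.3, 10.6 and 22.1 CPM in Ptch1cKO, with Ptch1cKO replicate 4 the highest and replicate 3 the lowest library of all. Its log2 fold change was 0.15 (SE 0.27, 95% interval -0.42 to 0.72; edgeR adjusted p = 0.914). Fdft1, which makes squalene, and Lss, which closes the sterol rings, had values of 0.07 (SE 0.20) and 0.10 (SE 0.22). Exons of Fdft1, Cyp51 and Lss overlap genes on the opposite strand, Ctsb, Akap9 and 4930483K19Rik. Msmo1 and Nsdhl, which remove the methyl groups at one carbon of the ring, had 0.13 (SE 0.31) and -0.16 (SE 0.22), and Hsd17b7, which acts with them, had 0.36 (SE 0.34). The last steps, Sc5d and Dhcr7, had 0.10 (SE 0.23) and 0.15 (SE 0.28). Ebp had 7, 0, 5 and 5 reads in WT and 7, 11, 1 and 15 in Ptch1cKO (exact two-sided permutation test on CPM, p = 0.286), so a difference was not detectable at this depth.

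Much of the variation in the set lay between libraries of a genotype. Of the 38 genes, 14 had their highest level in Ptch1cKO replicate 2, 8 in Ptch1cKO replicate 4 and 7 in WT replicate 3. The lowest level fell in Ptch1cKO replicate 3 for 9 genes, in WT replicate 4 for 8, and in WT replicates 1 and 2 for 7 each. The summed level of the astrocyte markers was also highest in Ptch1cKO replicate 2 (35114 CPM) and WT replicate 3 (32555 CPM) and lowest in Ptch1cKO replicate 3 (17040 CPM) and WT replicate 2 (21467 CPM), but it did not follow the set throughout. It was the next highest in WT replicate 4 (31061 CPM), where 8 genes had their lowest level, and intermediate in Ptch1cKO replicate 4 (26369 CPM). All 10 astrocyte markers had reads in every library. The sum ranged from 21467 to 32555 CPM in WT and from 17040 to 35114 CPM in Ptch1cKO (exact permutation p = 0.743). Slc1a2 made up a large part of it, at 9327 to 24561 CPM, with a log2 fold change of -0.23 (SE 0.24). By gene, 8 of the 10 markers had positive fold changes and 2 negative, with a median of 0.08. The highest were Gja1 at 0.50 (SE 0.28), Slc4a4 at 0.49 (SE 0.26) and Atp1b2 at 0.49 (SE 0.23). Atp1b2 had an unadjusted edgeR p of 0.0494 and an adjusted p of 0.532.

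Markers of other cells, some of which also make or export sterols, were examined beside these values. All 10 microglial markers had positive fold changes, with a median of 0.65, and their sum ran from 389 to 763 CPM in WT and from 438 to 1141 CPM in Ptch1cKO (exact permutation p = 0.314). Ptprc, the pan-leukocyte CD45, had a log2 fold change of 0.97 (SE 0.28; edgeR unadjusted p = 0.00296, adjusted p = 0.300) with no overlap between groups. For C1qc, a complement component, it was 0.99 (SE 0.37; edgeR unadjusted p = 0.0170, adjusted p = 0.421). The microglial sum was highest in Ptch1cKO replicate 3 and lowest in WT replicate 3. Of 9 tested markers of mature oligodendrocytes 6 were positive, and their sum ran from 13823 to 26792 CPM in WT and from 17555 to 23281 CPM in Ptch1cKO (exact permutation p = 0.971). It was highest in WT replicate 2 and lowest in WT replicate 1. Of the 9, Mag, Mobp, Cnp and Cldn11 had unadjusted edgeR p-values of 0.0168 to 0.0443 (44.4%, beside 9.34% of all genes under 0.05). Their adjusted edgeR p-values were 0.421 to 0.522. All 4 were higher in Ptch1cKO, with log2 fold changes of 0.41 to 1.07. Mag and Cldn11 were highest in Ptch1cKO replicate 4, at 32.4 and 30.1 CPM. The next highest values were 17.2 and 11.6 CPM, in Ptch1cKO replicate 3. Of 7 tested markers of oligodendrocyte precursors 6 were positive, with a median of 0.33, and the sum of all 8 ran from 132 to 252 CPM in WT and from 210 to 289 CPM in Ptch1cKO (exact permutation p = 0.114). Among them C1ql1 had a log2 fold change of 0.72 (SE 0.28; edgeR unadjusted p = 0.0197, adjusted p = 0.438) with no overlap, and Sox10 one of 0.90 (SE 0.42; edgeR unadjusted p = 0.0474, adjusted p = 0.529). The 8 endothelial markers summed to at most 18.7 CPM in any library, with Cldn5 and Ly6c1 at 0 in some. Of the 3 tested, 1 was positive and 2 were negative. Of the 10 neuronal markers 4 were positive and 6 negative. The 2 tested markers of pericytes and smooth muscle were negative, with Rgs5 at -1.46 (SE 0.44; edgeR unadjusted p = 0.00477, adjusted p = 0.325). An unadjusted edgeR p under 0.05 was found for 2 of 10 microglial and 2 of 7 precursor markers, beside 9.34% of all genes. It was found for 1 of 10 neuronal markers. The part of these cells in the fold changes above was not tested.

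**Figure D4:**
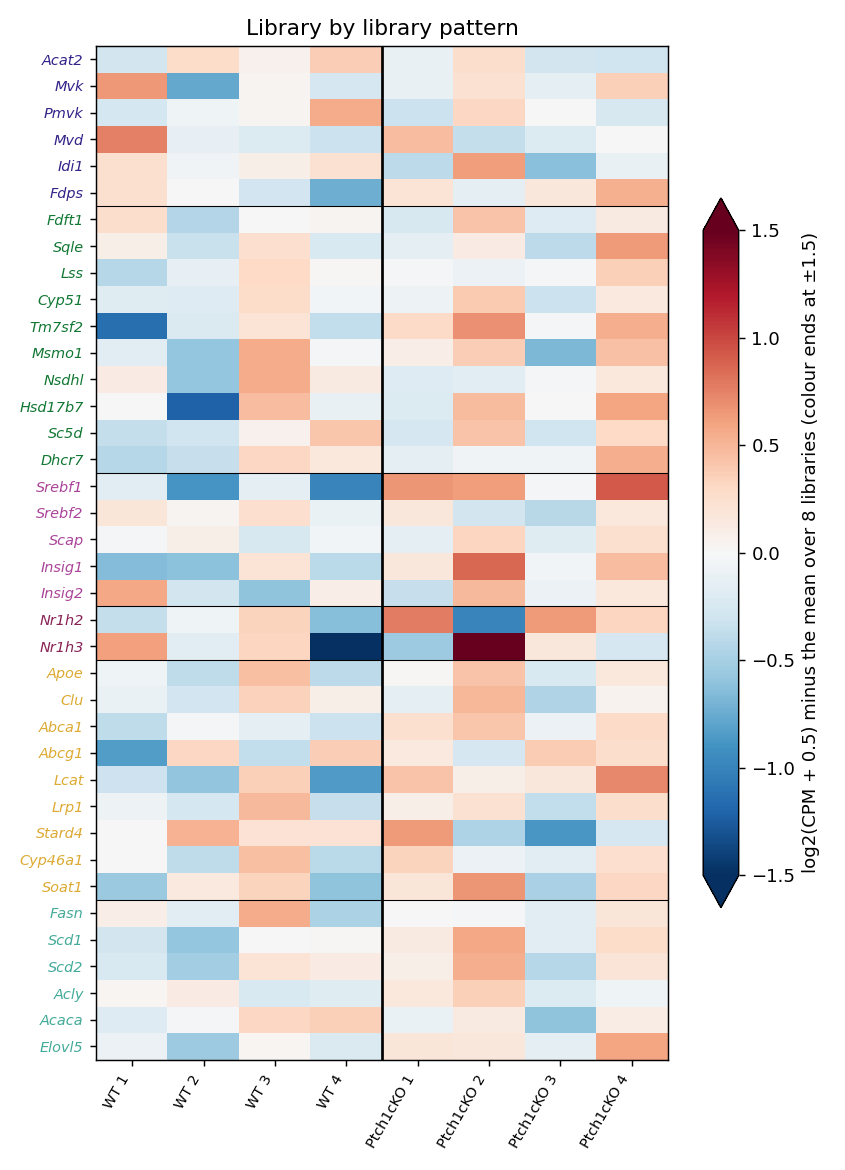
Colour gives log2(CPM + 0.5) of each tested gene minus its mean over the 8 libraries, with genes in rows by role and libraries in columns, WT left of the line. Ptch1cKO replicates 2 and 4 and WT replicate 3 are red for most genes, with library medians of 0.31, 0.25 and 0.21. Ptch1cKO replicate 3 and WT replicates 1, 2 and 4 are blue for most, with medians of -0.17, -0.09, -0.24 and -0.11. Ptch1cKO replicate 1 has a median of 0.05. Srebf1 has all 4 WT libraries below all 4 Ptch1cKO libraries.

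Other genes of the pathway, in 7 lists of 88 genes outside the set, had fold changes in both directions. Of the 77 tested, 0 passed by edgeR over all genes and 6 had an unadjusted p under 0.05 (7.79%, beside 9.34% of all genes), 2 higher and 4 lower. The fold changes were positive for 42 and negative for 35, with a median of 0.02.

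The proteases and ubiquitin ligases that act on SREBP held the smallest p. Mbtps2, the X-linked site-2 protease that frees SREBP from the membrane, had 98.1, 54.5, 84.8 and 106 CPM in WT and 49.7, 41.4, 58.1 and 46.4 CPM in Ptch1cKO. The groups crossed at WT replicate 2, at a log2 fold change of -0.81 (SE 0.20; edgeR unadjusted p = 0.000943, adjusted p = 0.198). Fbxw7, part of the ligase that degrades nuclear SREBP, had -0.39 (SE 0.15; edgeR unadjusted p = 0.0155, adjusted p = 0.418). Of the 8 tested genes of this list 4 were positive and 4 negative.

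In fatty acid activation, elongation and desaturation 10 of 17 were positive, with a median of 0.13. Fads2, the delta-6 desaturase, had a log2 fold change of 0.34 (SE 0.14; edgeR adjusted p = 0.482). Mid1ip1, an activator of acetyl-CoA carboxylase, had 34.4 ± 2.20 CPM in WT against 45.0 ± 4.04 CPM in Ptch1cKO (SD, n = 4), with no overlap and a log2 fold change of 0.38 (SE 0.16; edgeR adjusted p = 0.482). LXR partners and targets were positive in 6 of 9, with a median of 0.34. The member of that list with the smallest p went the other way, since the sterol exporter Abcg4 had a log2 fold change of -0.67 (SE 0.31; edgeR adjusted p = 0.531).

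Lipoprotein receptors, lipases and lysosomal export genes were positive in 5 of 12. Lrp4, a receptor of the lipoprotein receptor family, had 329.9, 289, 339.9 and 258 CPM in WT and 219, 255, 153 and 213 CPM in Ptch1cKO. All Ptch1cKO libraries lay below all WT libraries, beside 2.50% of all genes, at a log2 fold change of -0.54 (SE 0.15; edgeR unadjusted p = 0.00335, adjusted p = 0.300). In the remaining lists no gene had an unadjusted p under 0.05. Their smallest p-values belonged to Pdss1 and Pdss2, which make the tail of coenzyme Q, at -0.79 (SE 0.37) and -0.78 (SE 0.56). Among oxysterol enzymes and sterol carriers they belonged to Cyp27a1 at 0.98 (SE 0.58) and Osbpl1a at -0.18 (SE 0.11), and in fatty acid binding and oxidation to Ppara at -0.69 (SE 0.39) and Ppargc1a at -0.20 (SE 0.14).

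**Figure D5:**
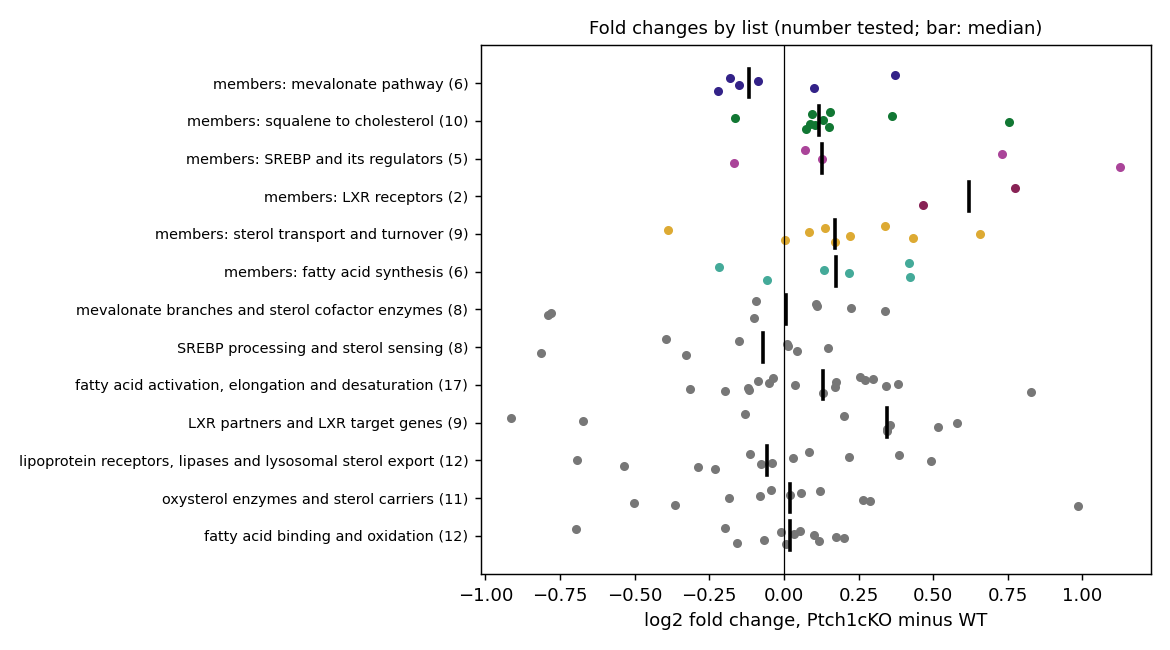
Log2 fold change (Ptch1cKO minus WT) of each tested gene, 1 point per gene, in the 6 role groups of the set (coloured) and the 7 lists of other pathway genes (grey), with the number tested in brackets and the median as a bar. Medians lie between -0.12 and 0.34 except for the 2 LXR receptors at 0.62, and genes on both sides of 0 occur in every list except those receptors.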

How the data were processed

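The authors' count table gives raw whole-number counts by gene symbol (24047 rows), and their second table gives TPM (23585 rows). The submitters' processing notes name bcl2fastq 2.18, STAR 2.5 and genome build mm10. Not given in the sources used here are the counting program, its annotation and its strand setting. Per the labels' protocols, cDNA from low-input RNA was enriched with exome capture probes.

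The count model was edgeR 4.0.16 in R 4.3.3. Of 20578 genes with any count, 10954 passed filterByExpr (minimum count 10, by group), and libraries were scaled by TMM. Ptch1cKO was set against WT by the robust quasi-likelihood F test over the 8 libraries, without covariates. A gene was called when its p, adjusted over all tested genes by Benjamini and Hochberg, was under 0.05. The SE is the absolute log2 fold change divided by the square root of F, and the 95% interval uses the moderated degrees of freedom. DESeq2 1.42.0, limma 3.58.1 on log2(TPM + 1), other scalings and filters, a replicate block and leaving out libraries were alternatives, 16 in all. The test was checked on simulated data. Libraries of a group differed beyond sampling noise (chi-square per degree of freedom at least 10.4), so none was counted as a duplicate. Marker sums and 3 ratios of genes were compared with exact permutation tests, and the ratio of Nr1h2 to Nr1h3 was computed but not tested.

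Gene positions come from GENCODE M21 (GRCm38, the assembly of mm10) and promoter windows from RefSeq. Members and lists were chosen with earlier results of these data known. Full values are given for members with an unadjusted p under 0.05 or no overlap between groups and for 9 key members picked by role, of which Hmgcs1 had no row. Of each other list, genes with an unadjusted p under 0.05 are named or, with none, the 2 with the smallest p.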

Additional observations from a re-analysis of the deposited data

Results flagged for a closer look

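In 78 sets of 4 libraries (39 genes in each genotype), the gap between an extreme library and its nearest neighbour was large against the range of the set in 4, a rate that chance gives in about 1 in 20. Mvd, the last enzyme of the mevalonate part, had 6.22 CPM in WT replicate 1 and 2.68 to 3.14 CPM in the other WT libraries. Lss had 28.8 CPM in Ptch1cKO replicate 4 and 21.0 to 22.2 CPM in the others of that genotype. Dhcr7, the enzyme of the last step to cholesterol, had 14.4 CPM in Ptch1cKO replicate 4 and 8.81 to 9.38 CPM in the others. Nr1h3 had 6.43 CPM in Ptch1cKO replicate 2 and 0.852 to 1.72 CPM in the others.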

How the results depend on the processing

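Srebf1, Insig1, Abca1, Lcat, Scd1 and Elovl5 had positive fold changes in all 16 alternatives, and Tm7sf2 in the 15 that tested it (it is below a mean of 10 CPM). The number of genes called, 11 of all genes tested, was 80 by DESeq2, 199 without the count filter, 5 with a replicate block, 3 without WT replicates 2 and 3 together, 2 by limma on TPM, and 1 to 19 when single libraries were left out. The number of members called was 0 in all of them except edgeR without the count filter, where it was 2 (Srebf1 and Insig1). Among members the number with negative fold changes, 9, was 5 with a minimum mean of 10 CPM (28 members tested), 17 by limma on TPM, and 8 to 14 when single libraries were left out. Replicate numbers, taken from the sample titles, showed no pairing. Correlations between same-numbered libraries were -0.17 to 0.02, and 0 of 8 libraries correlated best with its own number. The count columns number some Ptch1cKO samples differently, and pairing by those numbers was not tested. No header prefix of these columns is shared between WT and Ptch1cKO, so any effect tied to it cannot be told apart from genotype. With the replicate block, 4 of 38 members had an unadjusted edgeR p under 0.05, beside 7.14% of all genes. For many sterol genes the fold change was small enough to change sign, and the cause was not tested. Log2 fold changes opposite to the reported sign were, by limma on TPM, -0.048 for Fdft1, -0.000239 for Sqle, -0.043 for Cyp51, -0.029 for Sc5d, -0.00462 for Scap, -0.012 for Insig2, -0.14 for Clu and -0.015 for Lrp1. Clu had -0.000114 by DESeq2 and -0.019 with the replicate block. Without WT replicates 2 and 3 together they were -0.19 for Mvk, -0.097 for Fdft1, -0.28 for Insig2 and 0.16 for Fasn. When single libraries were left out, the log2 fold change crossed 0 for 16 genes. Their lowest and highest values were, for Mvk -0.10 to 0.42, Pmvk -0.29 to 0.043, Mvd -0.31 to 0.27, Fdft1 -0.070 to 0.18, Sqle -0.088 to 0.28, Lss -0.00952 to 0.24, Cyp51 -0.039 to 0.20, Msmo1 -0.027 to 0.39, Nsdhl -0.34 to 0.028, Sc5d -0.038 to 0.27, Dhcr7 -0.036 to 0.31, Insig2 -0.096 to 0.33, Nr1h3 -0.27 to 1.15, Clu -0.19 to 0.13, Lrp1 -0.011 to 0.30 and Fasn -0.20 to 0.15. The reversed sign of Nr1h3 arose without Ptch1cKO replicate 2, and that of Fasn without WT replicate 3. Depth limits Ebp, Nr1h3, Mvd and Stard4 most, and the 95% intervals of Nr1h3 and Mvd include changes of over 1.5 times in either direction.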
